A study of Mus musculus with 2 samples.

Results

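The oocyte transcription factor genes Figla, Nobox, Sohlh1, Sohlh2, Lhx8, Taf4b and Tbpl2 were followed through single cells of the newborn mouse ovary. They were taken by symbol from the deposited gene list, where each symbol stood once, and make up 7 of 31057 genes. Whole ovaries from untreated CD1 pups (postnatal day 2) were dissociated with collagenase type IV and Accumax and captured as 2 libraries with 3′ tagging in a study of long-lived ovarian proteins, and each library pooled the ovaries of several pups of a single female. The libraries, replicates 1 and 2, are the only replicates (n = 2), and no transgene or engineered allele is named for them. Replicate 1 held 4094 cells with 54471790 unique molecular identifiers (UMIs, each marking 1 captured transcript molecule), and replicate 2 held 4847 cells with 59074480 UMIs. Cells were gated by markers, germ cells by Ddx4, Dazl and Ooep, granulosa cells by Foxl2, Fst and Wnt6, interstitial cells by Col1a2 and Dcn and mesothelial cells by Upk3b. No member served as a gate marker.

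In the ovary, oocytes leave nests around birth and become enclosed by flat granulosa cells as primordial follicles, the reserve from which later follicles grow. This step and the first growth of the oocyte depend on a small set of regulators. Sohlh1 and Sohlh2 encode basic helix-loop-helix (bHLH) factors of early oocyte differentiation, and Figla encodes a bHLH factor that pairs with E proteins and activates the zona pellucida genes. Nobox and Lhx8 encode homeodomain factors, Lhx8 with LIM domains, whose loss depletes oocytes after birth. Taf4b encodes a cell-type-restricted subunit of the general factor TFIID and is needed for female fertility, and Tbpl2 encodes a relative of the TATA-binding protein that serves growing oocytes.

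Positions are those of the GENCODE annotation on GRCm38. Figla (chromosome 6, 86016171 to 86020996, plus strand) and Nobox (chromosome 6, 43303674 to 43309554, minus strand) share a chromosome. Sohlh1 (chromosome 2, 25842995 to 25847248) and Tbpl2 (chromosome 2, 24071721 to 24096595) both lie on the minus strand. Sohlh2 spans 55182028 to 55209957 of chromosome 3 on the plus strand and Lhx8 spans 154306294 to 154330659 of the same chromosome on the minus strand. No exon of another annotated gene overlapped an exon of any of the 7.

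Because the bHLH factors bind E-boxes (CANNTG), the 250 bases before the RefSeq start (GRCm38.p6) were searched, and 6 of the 7 genes had a promoter entry, all except Taf4b. Figla and Nobox held 2 E-boxes each, Sohlh1 held 5, Sohlh2 held 1, Tbpl2 held 4 and Lhx8 held 0. Of 32817 promoters of the same length, 66.2% held at least 1 E-box and 1.15% held 5 or more. Of the 5 in Sohlh1, 3 were CACGTG, at 231, 211 and 192 bases before the start. This palindrome, a form of CANNTG, occurred in 6.02% of all promoters and 3 or more times in 0.0609%. TAATTG (7.17% of promoters), TAATTA (4.85%), TGATTG (12.7%) and TATAAA (12.4%), searched on both strands, were found in none of the 6 windows. The following windows, 5′ to 3′ on the strand of the gene, are those of the members with at least 2 E-boxes, with the E-boxes in capitals. They are chr2:25847249-25847498 (minus strand) for Sohlh1, chr6:86016941-86017190 (plus strand, inside the annotated span of Figla and outside its exons) for Figla, chr6:43309555-43309804 (minus strand) for Nobox and chr2:24096596-24096845 (minus strand) for Tbpl2. Matches are letters in a window, and binding was not measured.
Sohlh1: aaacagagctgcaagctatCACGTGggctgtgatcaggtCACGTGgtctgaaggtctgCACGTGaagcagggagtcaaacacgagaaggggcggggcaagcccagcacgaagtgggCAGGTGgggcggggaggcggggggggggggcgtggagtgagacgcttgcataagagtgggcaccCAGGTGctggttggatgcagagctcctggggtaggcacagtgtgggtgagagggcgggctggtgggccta
Figla: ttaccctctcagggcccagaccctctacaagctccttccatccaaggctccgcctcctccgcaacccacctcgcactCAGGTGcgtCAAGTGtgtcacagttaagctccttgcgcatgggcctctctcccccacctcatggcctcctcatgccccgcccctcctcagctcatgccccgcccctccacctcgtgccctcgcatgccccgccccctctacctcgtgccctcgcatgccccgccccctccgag
Nobox: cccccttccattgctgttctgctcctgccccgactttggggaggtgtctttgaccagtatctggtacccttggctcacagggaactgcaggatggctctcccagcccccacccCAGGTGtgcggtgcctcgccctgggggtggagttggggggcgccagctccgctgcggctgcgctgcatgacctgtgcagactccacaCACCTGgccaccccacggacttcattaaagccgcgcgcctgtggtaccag
Tbpl2: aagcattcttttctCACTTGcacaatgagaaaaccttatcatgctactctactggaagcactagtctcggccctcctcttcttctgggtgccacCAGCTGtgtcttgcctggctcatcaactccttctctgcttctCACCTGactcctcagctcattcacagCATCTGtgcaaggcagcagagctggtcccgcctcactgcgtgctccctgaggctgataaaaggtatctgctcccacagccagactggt

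After removal of cells with under 500 genes or over 10% mitochondrial UMIs and of likely doublets, 3642 and 4371 cells remained. The germ gate held 216 and 478 cells with a median of 78624 and 50787 UMIs. The granulosa gate held 1544 and 508 cells, the interstitial gate 1351 and 2468, and the mesothelial gate 86 and 104, with medians of 4955 to 11590 UMIs. The gates held against markers they did not use, since all 5 germ markers (Zp3, Gdf9, Sycp3, Dppa3, Dnd1), all 5 interstitial, all 5 mesothelial and 4 of 5 granulosa markers were highest in their own class in both libraries. The 5 germ markers summed to 8794 and 8035 CPM in germ-gated cells and to 46.2 to 86.9 in the somatic classes. The somatic gates were less clean. Mesothelial-gated cells held the granulosa markers at 637 and 610 CPM, beside 2006 and 2084 in granulosa-gated cells. They held the interstitial markers at 667 and 742 CPM, beside 3815 and 3012 in interstitial-gated cells. The libraries shared 21 barcodes, none of them germ-gated in both.

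Within germ-gated cells, the factors formed a wide ladder of levels, given on the counts-per-million (CPM) scale, a gene's UMIs scaled to a common total of UMIs per class and library. The bHLH gene Figla stood at the top with 1144 in replicate 1 and 1070 in replicate 2 (mean 1107 ± 52.8, SD, n = 2). Its relative Sohlh1 followed with 754 and 728 (741 ± 18.7). Of the homeobox genes, Nobox reached 599 and 585 (592 ± 10.2) and Lhx8 300 and 310 (305 ± 7.21). These 4 genes were abundant, and their libraries differed little. Sohlh2, the bHLH partner of Sohlh1, stood at 62.7 in both libraries. The general-factor genes were lowest, Taf4b with 35.4 and 27.9 (31.6 ± 5.30) and Tbpl2 with 16.8 and 9.06 (12.9 ± 5.49). The order was the same in both libraries, and no neighbours in it overlapped between the libraries. Counts from 3′ tags take each molecule once whatever the length of the transcript, so no length scaling was applied. Counting error was small for all but the last pair, with exact 95% Poisson intervals of 1128 to 1161 and 1056 to 1084 for Figla. The intervals of Tbpl2, 14.9 to 19.0 in replicate 1 and 7.81 to 10.4 in replicate 2, did not overlap, nor did those of Taf4b, 32.5 to 38.4 and 25.7 to 30.3. Those of Figla, and of Sohlh1 at 741 to 768 and 716 to 739, did not overlap between the libraries either. Intervals of counts cover counting error only.

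**Figure D1:**
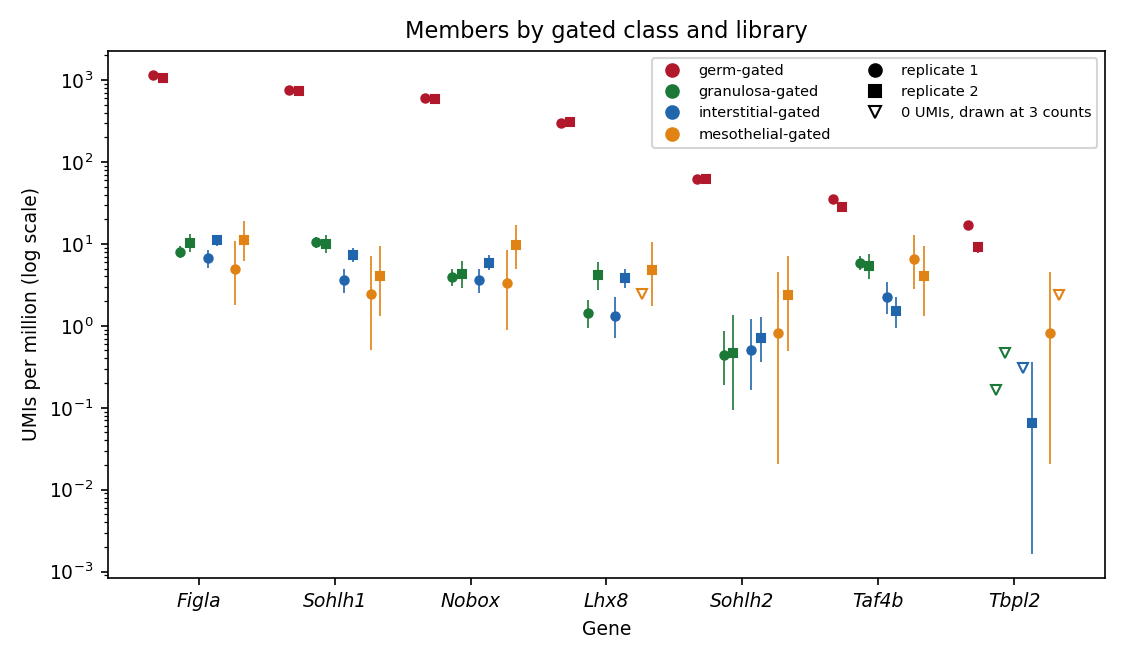
CPM (log scale) of each gene in the summed cells of 4 gated classes, with circles for replicate 1, squares for replicate 2, exact 95% Poisson intervals as bars and open triangles at 3 counts where no UMI was found. Germ-gated sums lay above every somatic sum for all 7 genes, and among sums with counts Taf4b showed the narrowest gap.

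All 7 genes were higher in germ-gated cells than in the somatic classes, and 6 of them by a wide margin. In granulosa-gated cells Figla stood at 8.05 and 10.3 CPM, Sohlh1 at 10.4 and 10.001, Nobox at 3.89 and 4.31 and Lhx8 at 1.42 and 4.15. Levels were also low in interstitial-gated cells, with 6.66 and 11.1 for Figla, 3.59 and 7.35 for Sohlh1, 3.59 and 5.92 for Nobox and 1.33 and 3.84 for Lhx8. Every germ-gated value was far above all of these. Against the mean of the 3 somatic classes, the log2 fold change was 7.04 (SE 0.18) for Figla, 7.06 (SE 0.19) for Sohlh1, 6.92 (SE 0.18) for Nobox, 6.97 (SE 0.32) for Lhx8 and 6.37 (SE 0.19) for Sohlh2. The edgeR quasi-likelihood adjusted p was 8.63e-11 for Figla, Nobox and Sohlh1, 1.25e-10 for Sohlh2 and 2.17e-09 for Lhx8. Taf4b rose less, by 3.09 (SE 0.19, edgeR adjusted p = 1.98e-08). All 7 were called, that is over 2-fold at an adjusted p under 0.05, where 31.2% of the 15479 genes tested were called higher and 27% lower. Beside each somatic class alone, all 7 were also called, where 30.1% of genes were called higher against granulosa, 31.8% against interstitial and 28.2% against mesothelial cells. So large a share of all genes differed that the call alone says little, whereas the size of the difference ranked Sohlh1, Figla, Lhx8, Nobox and Sohlh2 between place 510 and place 786 and Taf4b at place 1930. Of the Lhx8 estimate, the mesothelial class of replicate 1 held 0 UMIs, and the log2 fold change was 6.26 without replicate 1 and 8.95 without replicate 2.

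Tbpl2 was the rarest in germ cells and nearly absent elsewhere. It gave 269 and 189 UMIs in germ-gated cells and 0 in the granulosa-gated cells of both libraries. Interstitial-gated cells gave 0 and 1 UMI and mesothelial-gated cells 1 and 0. Against granulosa-gated cells, the exact 95% lower limit of the ratio of the germ level was 82.7 in replicate 1 and 15.8 in replicate 2. The same limit was 44.2 and 24.7 against interstitial-gated cells. Against mesothelial-gated cells it was only 3.64 and 3.03, so the counts set no wide margin for that class. Against all somatic gated cells, which held 1 UMI in each library, the ratio was 492 (exact 95% interval 87.5 to 19485) and 209 (37.1 to 8313). The gene was called (edgeR adjusted p = 1.32e-07), and its fitted fold change, which rests on the prior count, is not used here.

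In granulosa-gated cells, Figla, Nobox, Lhx8, Sohlh2 and Sohlh1 stood at a low share of their germ level. These shares lay above those of Zp3 and Gdf9, germ cell transcripts that somatic cells should lack, by little for Lhx8 in replicate 1. They did not all lie above the share of a wider set of germ markers, given below. Zp3, a zona pellucida protein, and Gdf9, an oocyte growth factor, stood in granulosa-gated cells at 0.383% and 0.567% (Zp3) and 0.468% and 0.633% (Gdf9) of their level in germ-gated cells. Figla stood there at 0.704% and 0.964%, Nobox at 0.649% and 0.737%, Lhx8 at 0.475% and 1.34% and Sohlh2 at 0.699% and 0.736%. Sohlh1 was higher in granulosa-gated cells, at 1.38% and 1.37%, than in interstitial-gated cells, at 0.476% and 1.01%. Zp3 and Gdf9 are 2 of the 5 germ markers not used by the gates. All 5 summed to 57.1 and 80.5 CPM in granulosa-gated cells, beside 8794 and 8035 in germ-gated cells. As a share of the germ level, only Sohlh1 of Figla, Nobox, Lhx8, Sohlh2 and Sohlh1 stood above that sum in both libraries. The part of free RNA in these levels was not tested. In a contrast added after these levels were seen, Sohlh1 differed between the granulosa and interstitial sums by a log2 fold change of 0.79 (SE 0.25, edgeR adjusted p = 0.0245), under the 2-fold limit. The adjusted p ran from 4.32e-04 to 0.124 over the settings, and the difference was 0.39 without replicate 1 and 1.44 without replicate 2.

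Taf4b, which spans 117115 bases at 14783245 to 14900359 of chromosome 18 on the plus strand, kept a somatic level well above those germ transcripts, as a share of its germ level, in all 3 somatic classes. It stood at 5.86 and 5.38 CPM in granulosa-gated cells (107 and 35 UMIs), which is 16.6% and 19.3% of its germ level. Mesothelial-gated cells stood at 6.57 and 4.01 (8 and 5 UMIs), or 18.6% and 14.4%. Interstitial-gated cells were lower, at 2.26 and 1.496 (22 and 23 UMIs), or 6.37% and 5.37%. In the same added contrast, Taf4b was higher in granulosa than in interstitial sums by a log2 fold change of 1.56 (SE 0.28, edgeR adjusted p = 8.46e-04), and was the only member called there, where 15.2% of genes were called higher. The difference was 1.74 without replicate 1 and 1.27 without replicate 2. The germ-to-granulosa ratio of Taf4b was 6.04 (exact 95% interval 4.90 to 7.49) in replicate 1 and 5.18 (3.68 to 7.51) in replicate 2.

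**Figure D2:**
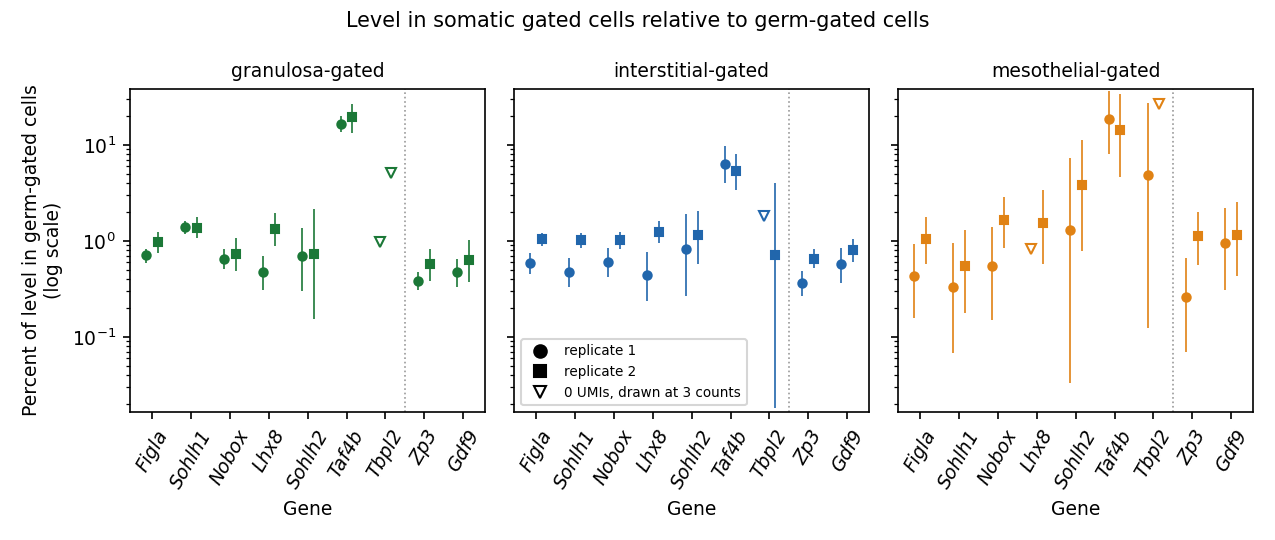
Level in each somatic gated class as a percent of the level in germ-gated cells of the same library (log scale), for the 7 genes and, right of the dotted line, for Zp3 and Gdf9, with 95% counting intervals of the somatic level and open triangles at 3 counts where no UMI was found. Taf4b stood at 16.6% and 19.3% in granulosa-gated cells, above the other genes with counts.

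How many germ cells carried each transcript was compared at equal depth, by thinning each germ-gated cell to 10000 UMIs, which left 205 and 348 cells and left out 11 and 130. Figla was found in all 205 and all 348 cells. Sohlh1 was found in 100% of cells of replicate 1 and 98.9% of replicate 2, and Nobox in 100% and 98.6%. Lhx8 was found in 91.2% (exact 95% interval 86.5 to 94.7) and 95.4% (92.6 to 97.3). These 4 genes were thus found in nearly every cell that could be compared. Sohlh2 was found in 51.7% (44.6 to 58.7) of replicate 1 and in 174 of 348 cells (44.6% to 55.4%) of replicate 2, Taf4b in 33.7% (27.2 to 40.6) and 24.4% (20.0 to 29.3) and Tbpl2 in 15.6% (10.9 to 21.3) and 7.18% (4.70 to 10.4). A cell without a UMI at this depth is not shown to lack the transcript. At full depth Sohlh2 was found in 93.5% and 75.3%, Taf4b in 86.1% and 58.4% and Tbpl2 in 66.7% and 29.1% of germ-gated cells. These shares cover all 216 and 478 germ-gated cells, those left out by thinning included.

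**Figure D3:**
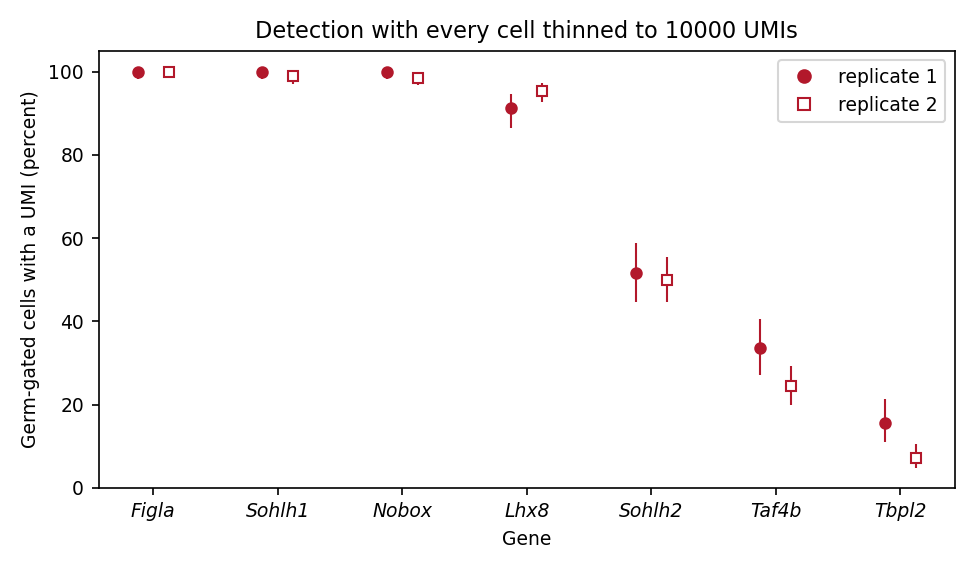
Percent of germ-gated cells with at least 1 UMI of each gene after thinning to 10000 UMIs per cell, with exact 95% binomial intervals, filled circles for replicate 1 (205 cells) and open squares for replicate 2 (348 cells). Figla, Sohlh1 and Nobox lay at or near 100% and Tbpl2 at 15.6% and 7.18%.

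At 2000 UMIs per cell, a depth that nearly all somatic cells reach, Figla was found in 84.5% and 82.6% of germ-gated cells. Granulosa-gated cells, whose median depth before thinning was 9887 and 9875 UMIs, showed it in 1.36% and 1.38%, beside 0.973% and 1.19% with a UMI of Zp3. Zp3 itself was found in fewer germ-gated cells than Figla, at 74.2% and 56.0%. Interstitial-gated cells showed Figla in 1.41% and 2.86%, beside 1.12% and 1.32% for Zp3. Taf4b was found in 6.57% and 6.998% of germ-gated cells. It was found in 1.36% and 0.395% of granulosa-gated and in 0.298% and 0.290% of interstitial-gated cells. Its UMIs in proportion to Figla differed between the classes, with 566 beside 18302 of Figla in germ-gated and 107 beside 147 in granulosa-gated cells of replicate 1, and 582 beside 22318 and 35 beside 67 in replicate 2. Tbpl2 was found in 5.16% and 2.03% of germ-gated cells, and in 0 of 1542 and 0 of 506 granulosa-gated cells, which allows shares of up to 0.239% and 0.726% (exact 95% limits) of cells with a UMI at this depth and sets no limit on cells that carry the transcript.

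The 4 abundant genes varied between cells by more than counting alone would give. At 10000 UMIs the median germ-gated cell held 11 and 10 UMIs of Figla, 8 and 7 of Sohlh1, 5 and 5 of Nobox and 3 and 3 of Lhx8. The variance divided by the mean, which is 1 for counting alone, was 1.61 and 1.87 for Figla and 1.40 and 1.41 for Nobox. Figla had the largest ratio and also the highest mean, and at equal relative spread this ratio grows with the mean. It therefore does not rank the genes by their spread. Sohlh1 showed 1.41 and 1.43, and Lhx8 1.40 and 1.18. The rarer genes, with means of 0.0747 to 0.693 UMIs per cell, showed values near 1. These were 0.930 and 0.966 for Sohlh2, 0.889 and 0.992 for Taf4b and 1.05 and 1.01 for Tbpl2. The ratio responds less to spread at low means, so these values show less than those of the abundant genes, and least for Tbpl2.

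Most germ cells showed several of the factors together. The commonest number found in a cell moved with depth, and was 4 of 7 at 5000 UMIs in both libraries. At 20000 UMIs it was 6 in replicate 1 and 5 in replicate 2. At 10000 UMIs it was 5 of 7, in 45.9% of cells of replicate 1 and 46.0% of replicate 2. All 7 were found in 5 and 4 cells, and the fewest found in any cell was 3 in replicate 1 and 2 in replicate 2. Over the 21 pairs, the share of cells with both genes was close to the product of the single shares, with a median ratio of 1.00 and a range of 0.819 to 1.28. Pairs with Figla, and in replicate 1 those with Nobox or Sohlh1, have a ratio of 1 by construction, since every cell held these genes, and in replicate 2 nearly every cell held Nobox and Sohlh1, so the median carries no information on pairing. Sohlh2 and Taf4b were found together in 17.1% and 12.9% of cells, where the product of their shares was 17.4% and 12.2%. Sohlh2 and Tbpl2 were found together in 15 and 16 cells, a ratio of 0.907 in replicate 1 and 1.28 in replicate 2, and Taf4b and Tbpl2 in 11 and 5 cells, a ratio of 1.02 and 0.819. Correlations of the thinned counts across cells of 1 library ran from -0.10 to 0.17 at 10000 UMIs. They ran from -0.15 to 0.26 at 5000 UMIs and from -0.13 to 0.26 at 20000 UMIs. Sohlh1 and Lhx8 gave 0.18 and 0.26 at 20000 UMIs, beside -0.0059 and 0.0035 at 10000 UMIs. None of these correlations was tested, and cells are not replicates.

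**Figure D4:**
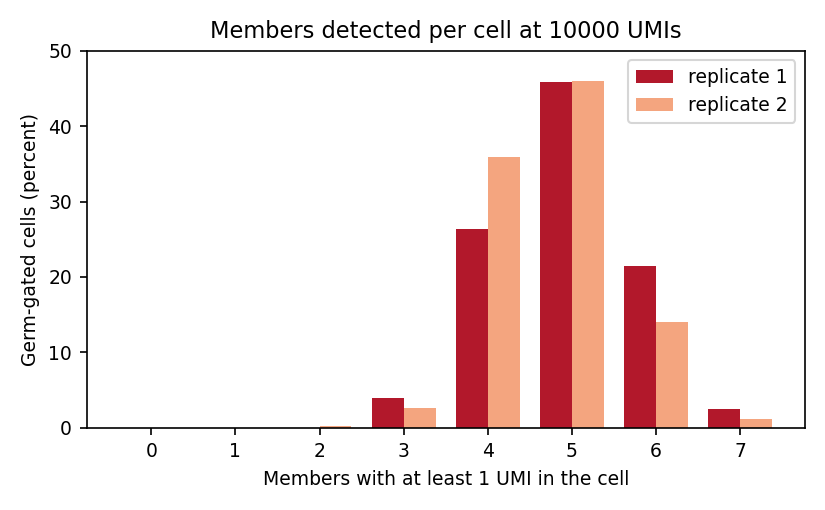
Percent of germ-gated cells (205 in replicate 1, 348 in replicate 2, thinned to 10000 UMIs) by the number of the 7 genes with at least 1 UMI. In both libraries the tallest bar stands at 5 genes, with 45.9% and 46.0%.

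Whether the factors changed with the RNA content of the germ cell was asked by splitting germ-gated cells of each library into 3 groups of near-equal cell number (tertiles) by total UMIs. None of the 7 was called between the upper and lower tertiles (edgeR quasi-likelihood test, 0 of 7), where 0% of the 12115 genes tested were called higher and 0% lower, although 1865 genes had an unadjusted p under 0.05 and DESeq2 called 48. Sohlh2 was lower in the RNA-rich tertile in both libraries, with 81.2 CPM in the lower and 55.0 in the upper tertile of replicate 1 and 82.8 and 57.3 in replicate 2. Its log2 fold change was -0.49 (SE 0.14, edgeR adjusted p = 0.195). Nobox stood at 483 and 654 in replicate 1 and at 592 and 627 in replicate 2, a log2 fold change of 0.31 (SE 0.13, edgeR adjusted p = 0.315). The other 5 had log2 fold changes between -0.18 (Taf4b, SE 0.20) and 0.17 (Figla, SE 0.12). The lower tertiles were unlike, since their median was 50624.5 UMIs in replicate 1 and 3619 in replicate 2, and in the latter the summed granulosa check markers stood at 89.0 CPM against 15.98 in the former, and the erythroid globins at 114 against 8.81. Their part in these differences was not tested. With the library as a replicate block, 202 genes but none of the 7 were called, with Sohlh2 at -0.50 (edgeR adjusted p = 0.0469, under 2-fold), and with germ cells of at least 10000 UMIs only, 204 genes but none of the 7 were called, with Sohlh2 at -0.50 (adjusted p = 0.0348) and Nobox at 0.42 (adjusted p = 0.0227).

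A second split used Zp3, whose transcript accumulates as oocytes begin to grow and which is no member. Germ-gated cells thinned to 10000 UMIs were divided at the median of Zp3 into 102 high and 103 low cells in replicate 1 (over 9 UMIs against 9 or fewer) and 150 and 198 in replicate 2 (over 5 against 5 or fewer). None of the 7 was called, where 0.855% of the 8660 genes tested were called higher and 0.0462% lower. The high cells were also richer in RNA before thinning, with medians of 91394 against 71971 UMIs and 71939 against 54728. Nobox averaged 6.26 UMIs in high and 5.495 in low cells of replicate 1 and 6.54 and 4.79 in replicate 2, a log2 fold change of 0.35 (SE 0.10, edgeR adjusted p = 0.160), with an adjusted p of 2.30e-04 with the library as a replicate block, under 2-fold. Tbpl2 gave 24 UMIs in high and 12 in low cells of replicate 1 and 16 and 10 in replicate 2, a log2 fold change of 1.13 (SE 0.52, edgeR adjusted p = 0.339, and 0.0714 with the block). This value rested on few UMIs and was 0.33 when cells were thinned to 20000 UMIs, 0.14 at 5000 UMIs and 0.73 with doublets kept. Figla was slightly lower in high cells, with 10.6 against 11.99 UMIs per cell and 9.79 against 11.0, a log2 fold change of -0.15 (SE 0.09, adjusted p = 0.479). Sohlh1, Lhx8, Taf4b and Sohlh2 lay between -0.20 (Sohlh2, SE 0.17) and 0.14 (Lhx8, SE 0.11). With the block, 231 genes were called in place of 78.

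**Figure D5:**
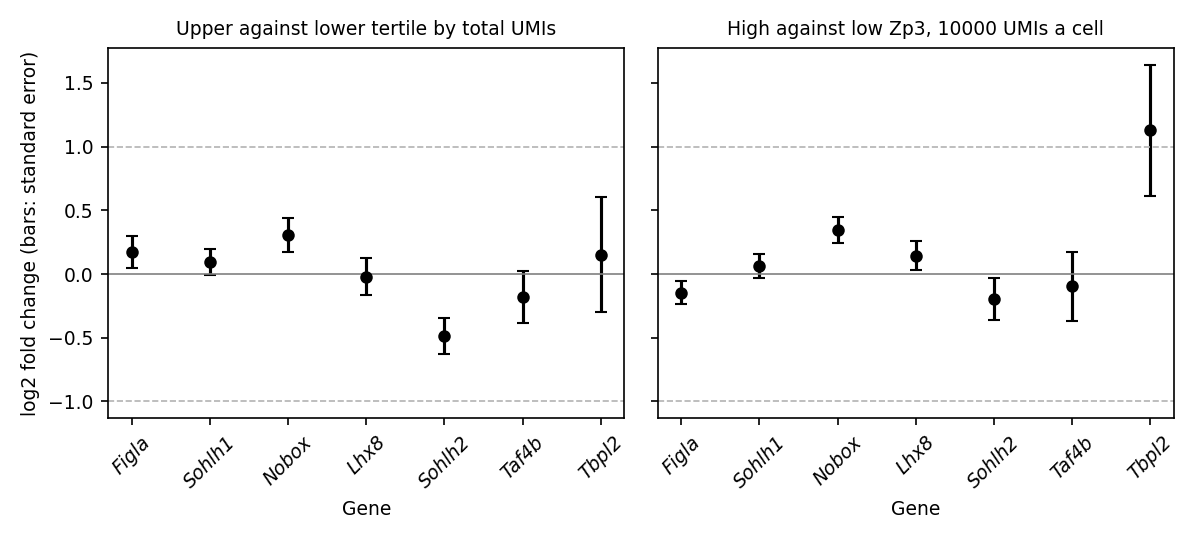
The log2 fold change of each gene within germ-gated cells, upper against lower tertile by total UMIs (left) and high against low Zp3 at 10000 UMIs per cell (right), with standard errors as bars, a solid line at 0 and dashed lines at a 2-fold change. Sohlh2 was lowest on the left at -0.49 and Tbpl2 highest on the right at 1.13, and neither passed the test.

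Genes linked to these factors were described by fixed lists. Of 20 listed target and oocyte-growth genes, 19 were tested against the somatic mean. All 19 were called higher, where 31.2% of all genes tested were called higher. Their median log2 fold change was 7.17 beside 0.10 over all genes. The list was chosen with earlier results of these data known, so its counts are a description. Dppa3, a maternal chromatin factor, stood highest in germ-gated cells with 5281 and 5351 CPM, followed by Padi6, Nlrp5 and Zp3, which serve the egg's cytoplasmic lattices, the subcortical maternal complex and the zona. In the Zp3 split 10 of 19 were called higher and 0 lower, where 0.855% of the 8660 genes tested were called higher and 0.0462% lower. The median of the 19 was 1.00 beside 0.00 over all genes tested. Zp3 is 1 of these 10 and set the split. Padi6 rose by 1.02 (SE 0.08, edgeR adjusted p = 4.67e-04), whereas Nlrp5 at 0.37 (SE 0.11) and Dppa3 at 0.24 (SE 0.08) were not called. The split called 10 target genes, Zp3 among them by construction, and none of the 7 regulators. With so small a share of all genes called, 0 of 7 says little about the regulators. Of the regulators, Sohlh2, Taf4b and Tbpl2 averaged only 0.0747 to 0.693 UMIs per cell at this depth. The difference between the lists was not tested.

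Of 15 partners and general factors, 7 were called higher and 2 lower in germ-gated cells, with a median log2 fold change of 0.46, where 31.2% of all genes were called higher and 27% lower. Sub1, a coactivator of general transcription, rose by 1.75 (SE 0.09), Dynll1, a dynein light chain, by 1.40 (SE 0.10) and Stat3 by 1.71 (SE 0.14), and Gtf2a2, a TFIIA subunit, stood at 0.46 (SE 0.11), under 2-fold. The 2 that fell, Tcf4 and Ldb2, are named after their values were seen. None of the 13 tested was called in the Zp3 split and none of 14 in the split by tertiles. Over all genes, 0.855% were called higher and 0.0462% lower in the Zp3 split and 0% between tertiles, so these counts say little. Of 14 early germ cell and meiosis regulators, 13 were measured and 11 tested, of which 8 were called higher and 3 lower in germ-gated cells, beside the same shares over all genes. The 3 that fell, Rec8, Msx1 and Nanos3, are likewise named after their values were seen. The axial element gene Sycp3 rose by 6.96 (SE 0.22), its partner Sycp1 by 7.60 (SE 0.23), the pluripotency factor Pou5f1 by 7.24 (SE 0.26) and Foxo3, which keeps primordial follicles dormant, by 2.19 (SE 0.14). In the Zp3 split Pou5f1, also a listed target, was the only one of 5 tested that was called, where 0.855% of all genes were called higher.

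Across 12 sums, 3 tertiles of germ-gated cells and 3 somatic classes in both libraries, the genes nearest to each member were ranked by Pearson correlation of log2(CPM + 1). The sums share libraries and differ mainly as germ or somatic, and 376 genes lay over 0.99 with Figla, so the ranking is a description. Syce1, Mos and Tcl1 were nearest to Figla, with 0.999 each. Fkbp6, Jag2 and Hint3 were nearest to Sohlh1, and E330017A01Rik, Ankrd36 and R3hdml to Nobox, at 0.997 to 0.999. Smc1b, Cpeb1 and Stk32a were nearest to Lhx8 and Arl14epl, Mecr and Gm1587 to Sohlh2, at 0.996 to 0.999. Taf4b had the loosest neighbours, Sfi1, Marveld2 and Pak1ip1 at 0.9897 to 0.992, with 2 genes over 0.99. Tbpl2 was nearest to Dcpp3 (0.998), Gid4 (0.995) and Gm48168 (0.992).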

How the data were processed

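Whole ovaries were profiled by 10x Genomics 3′ single-cell RNA sequencing in 2 libraries. The labels name version 2 of the reagent chemistry and the methods another version. The authors deposited UMI counts per gene and cell as whole numbers without normalization, made with Cell Ranger 3.0.2 on GRCm38 per the submitters' processing notes and limited to barcodes called as cells. The members and the gene lists were chosen with earlier results of these data known.

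Cells under 500 genes or over 10% mitochondrial UMIs were dropped, which left 3738 and 4464 cells, and 96 (2.57%) and 93 (2.08%) were removed as doublets with Scrublet in scanpy 1.11.5 at an expected share of 0.05, using the automatic threshold of replicate 1 (0.225) for both, since that of replicate 2 (0.521) lay higher. A cell passed a gate with at least 3 marker UMIs, at least 2 markers where the gate has more than 1, and at least 1 marker UMI per 10000. Cells passing more than 1 gate (174 and 360) or none (271 and 453) were left out. UMIs were summed per library and class and tested by the quasi-likelihood method of edgeR 4.0.16 (R 4.3.3), after its default expression filter and TMM scaling, with Benjamini-Hochberg adjustment over all genes tested, and a gene was called over 2-fold at an adjusted p under 0.05. The standard error is the log2 fold change divided by the square root of the test's F. The scripts were tested on simulated counts. The 2 libraries limit the precision. The p-values measure only the spread between sums of the 2 libraries, in which pups and droplet run cannot be told apart.

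Classes of 1 library come from the same pups and the same droplet run, so the library pairs them by design. Deviations of a library correlated between classes by 0.08 to 0.27, between tertiles by 0.30 to 0.59 and between the Zp3 groups by 0.35, and the library as a replicate block was run as an alternative. Named genes were the members, the gate markers, the up to 4 genes of each list with the highest mean in germ-gated cells, and the 3 genes nearest to each member. DESeq2 1.42.0, other scalings, filters, gates and depths were alternatives. Sequences came from RefSeq promoters, and no protein sequences were used here.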

Additional observations from a re-analysis of the deposited data

Results flagged for a closer look

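Cells outside the 4 gated classes were not part of any comparison, and in 4 sets of them the 7 genes summed to more than in any somatic class, whose highest sum was 30.1 CPM in replicate 1 and 36.1 in replicate 2. Ungated cells (271 and 453) held 88.1 and 274 CPM, which is 3.03% and 9.81% of the germ-gated sum. Cells removed by the filter on genes and mitochondrial UMIs (356 and 383) held 420 and 306, or 14.4% and 11.0%. Cells removed as doublets (96 and 93) held 852 and 935, or 29.2% and 33.5%. Cells that passed the germ gate together with a somatic gate (11 and 133) held 2437 and 2130, or 83.7% and 76.3%. Among ungated cells Taf4b reached 12.3% of its germ level in replicate 1 (10 UMIs) and 32.2% in replicate 2 (17 UMIs), and Figla 4.17% and 8.55%. Cells that passed several somatic gates and not the germ gate (163 and 227) held 16.6 and 28.1, no more than the somatic classes. None of these sets has a control to compare with, and their makeup was not tested.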

How the results depend on the processing

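All 7 genes were called higher in germ-gated cells under every alternative that could test them, the library as a replicate block included (7 called). Tbpl2 could not be tested after thinning to 2000 UMIs, where the other 6 were called. None of the 7 was called between tertiles or Zp3 groups, with the replicate block or otherwise, except that without replicate 1 Tbpl2 passed 2-fold in the Zp3 split (0 to 1 called). With 1 library left there is no residual spread, so such calls rest on the fold change alone. Over all genes the block raised the calls from 0 to 142 higher and 60 lower between tertiles and from 74 and 4 to 194 and 37 in the Zp3 split. Without the low-count filter they were 175 and 102, and 168 and 36. DESeq2 called 28 and 20, and 48 and 2, and gave Tbpl2 no adjusted p in either. A gate of 6 marker UMIs called 1 gene between tertiles, germ cells of at least 10000 UMIs 171 and 33, mixed germ cells kept 38 and 0 in the Zp3 split, and thinning to 20000 UMIs 134 and 17. The settings on germ cells of at least 10000 UMIs and on mixed cells were chosen after seeing the data. Thinned to 2000 UMIs, 2450 and 2946 of 10419 genes differed between germ and somatic sums.

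Small differences within germ cells changed sign, and the cause was not tested. Between tertiles Lhx8 was 0.014 without the filter, 0.0015 with doublets kept, 0.018 at 5000 UMIs, 0.0045 at a gate of 6 marker UMIs, 0.059 in germ cells of at least 10000 UMIs, 0.055 with mixed cells kept and 0.053 when split at the median. Tbpl2 was -0.0076 at the gate of 6 and -0.023 at the median split, Taf4b 0.054 at the median split and Figla -0.020 in germ cells of at least 10000 UMIs. Leaving out a library gave -0.0078 to 0.20 for Sohlh1, -0.21 to 0.17 for Lhx8 and -0.062 to 0.41 for Tbpl2. In the Zp3 split Lhx8 was -0.021 with doublets kept, -0.030 with mixed cells kept and -0.075 at 5000 UMIs, Taf4b 0.27 with mixed cells kept and 0.30 at 20000 UMIs, Sohlh1 -0.078 at 20000 UMIs and Sohlh2 0.094 at 5000 UMIs, and leaving out a library gave -0.26 to 0.024 for Taf4b.

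Shares of germ-gated cells moved with depth, and the set of cells compared changed with it. At 5000 UMIs the mean share was 98.3% for Figla, 90.5% for Nobox, 95.1% for Sohlh1, 26.3% for Sohlh2, 74.6% for Lhx8 and 14.2% for Taf4b. At 20000 UMIs it was 72.1% for Sohlh2, 99.1% for Lhx8, 45.7% for Taf4b and 22.4% for Tbpl2. Without thinning it was 96.7% for Figla, 95.7% for Nobox, 96.0% for Sohlh1, 84.4% for Sohlh2, 72.2% for Taf4b and 47.9% for Tbpl2. These last shares cover all 216 and 478 germ-gated cells, with the shallow cells that thinning left out. The median ratio of pairs was 1.01 at 5000 and 1 at 20000 UMIs.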
